A study of Mus musculus with 10 samples.

Results

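Aminoacyl-tRNA synthetases are the enzymes that load each transfer RNA with its amino acid before translation. The genes described here were those in the count files whose symbol is a single letter followed by "ars" or "ars2", together with Eprs, Farsa and Farsb, and they came to 37 of 24538 counted genes. All 37 passed the filter on low counts and were tested among 11823 genes. By name 20 encode cytoplasmic enzymes and 17, the names ending in 2, mitochondrial enzymes. Gars and Kars, for glycine and lysine, each encode both the cytoplasmic and the mitochondrial form and are counted with the cytoplasmic genes.

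RNA came from live CD31+/CD45- cells sorted from mouse lung, with 5 libraries of healthy lung tissue (normal lung) and 5 of metastatic nodules cut out of the lung (metastases). All samples were labelled wild-type C57BL6/J mice at an age of 8 to 10 weeks. The metastases grew after tail vein injection of the murine breast cancer line E0771-LG into females aged 6 to 8 weeks, and nodules under 1 mm in diameter were pooled from 2 to 4 mice per library. Digestion took 30 min at 37 °C with the transcription inhibitors alpha-amanitin and actinomycin D in the buffer, in both groups. Libraries were made from total RNA with an amplification kit. CD31 marks endothelial cells and CD45 leukocytes.

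In the cytoplasm a set of synthetases is held together in the multisynthetase complex (Eprs, Iars, Lars, Mars, Qars, Rars, Kars and Dars) by the scaffold proteins encoded by Aimp1, Aimp2 and Eef1e1, while the other enzymes work apart from it. Mitochondria translate their own messenger RNAs and use a separate set of nuclear-encoded synthetases. Genes of many cytoplasmic synthetases are known targets of ATF4, the transcription factor of the response to amino acid shortage, and of MYC.

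Promoter sequences show where the letters of these factors' elements lie beside the synthetase genes. RefSeq promoters (GRCm38.p6, 250 bases before to 50 after each gene's start) were found for 26 of the 37 genes, 12 cytoplasmic and 14 mitochondrial. Genes without an entry included Cars, Hars, Hars2, Lars, Mars, Nars, Pars2, Rars, Vars and Wars. The letters of 2 motifs were searched on both strands, the core of the ATF4 element, TGATGNAA, and the E-box CACGTG to which MYC binds, and no match of the first overlapped a match of the second. The ATF4 letters were present in 5 of 12 cytoplasmic promoters (41.7%), in 0 of 14 mitochondrial promoters and in 4.51% of the promoters of all 27025 genes in the table. The E-box was present in 4 of 12 cytoplasmic promoters (33.3%), in 1 of 14 mitochondrial promoters and in 8.09% of all. A match is a description of the letters and not a measured binding site. Matches that lie before the gene start are printed here, 5′ to 3′ on the gene's strand with the motif in capitals, to show the bases around each match. For Gars (chr6:55037960-55037989, plus strand) and Tars (chr15:11399659-11399684, minus strand) the capitals are the ATF4 letters as read from the opposite strand, and their first base lies 30 and 15 bases before the start.
Gars: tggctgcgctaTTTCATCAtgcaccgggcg
Tars: caggagtcccgTTGCATCAgctggtt
For Iars (chr13:49682049-49682078, plus strand), Farsb (chr1:78488919-78488948, minus strand) and Aars (chr8:111033684-111033713, plus strand) the capitals are the E-box, which begins 69, 39 and 146 bases before the start.
Iars: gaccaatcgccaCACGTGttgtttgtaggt
Farsb: ttagacaggcatCACGTGagacagcccaag
Aars: agtcaaccctgtCACGTGacactccatgtc
Iars and Yars held the ATF4 letters just after the start, and Tars and Ears2 held an E-box after the start.

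Counts assigned to genes ranged from 41.0 M to 79.7 M in normal lung and from 21.7 M to 54.3 M in metastases. The groups were compared with edgeR's quasi-likelihood test, and a gene is called risen or fallen only at an adjusted p (Benjamini-Hochberg over all 11823 genes) under 0.05. Log2 fold changes are positive where metastases were higher, and each has an approximate SE (standard error). Levels are CPM (counts per 1000000 of the scaled library size) as mean ± SD over 5 libraries per group. Pecam1, the gene of CD31, was present in every library, at 1840 to 3922 CPM in normal lung and 146 to 1402 CPM in metastases. It was lower in metastases, as was the summed level of 19 pan-endothelial genes (16453 to 31021 against 1384 to 10574 CPM). Of 5 other marker sums 4 were higher in metastases, for 11 fibroblast genes 47.2 to 92.9 against 506 to 2419 CPM, for 13 leukocyte genes 73.9 to 242 against 1028 to 1933 CPM, for 10 epithelial and tumour genes 1.11 to 13.4 against 10.3 to 54.0 CPM, and for 15 proliferation genes 76.1 to 196 against 1978 to 3401 CPM. The epithelial and tumour sums overlapped between the groups. Of the tested members 6 of 8, 5 of 9, 1 of 2 and 12 of 15 rose, against 12.0% of all tested genes. The sum of 9 lung epithelial genes went the other way, with overlap, at 96.6 to 859 CPM in normal lung and 25.9 to 189 CPM in metastases. Of 5 tested 0 rose and 2 fell (12.0% and 8.22% of all tested genes), Scgb1a1 (-5.74, adjusted p = 0.00245) and Hopx (-2.24, 0.0158). Of the defining markers Col1a1 was between 0.857 and 17.4 CPM in normal lung and between 15.4 and 336 CPM in metastases, and Krt8 between 0.162 and 0.339 and between 4.61 and 42.2 CPM. Ptprc, the gene of CD45, was between 8.05 and 26.1 CPM in normal lung and between 84.0 and 154 CPM in metastases. It rose 6.81-fold (2.77 ± 0.57, adjusted p = 0.0012). Epcam was at 0 in 3 normal and 2 metastasis libraries and at most at 9.78 CPM in normal lung and 4.50 CPM in metastases. The part of these cells in the results on synthetases was not tested. In sorted bulk RNA, more cells of a type and more RNA per cell cannot be told apart.

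The genes of cytoplasmic synthetases were more often higher in metastases than genes at large, and no mitochondrial synthetase gene passed the test. Of 20 cytoplasmic genes 11 rose and 0 fell, against 12.0% of all tested genes that rose, 8.22% that fell and 20.2% that changed either way. Of 17 mitochondrial genes 0 rose and 0 fell. Without a correction, edgeR gave a p under 0.05 for 12 cytoplasmic genes upwards and 1 downwards, and for 1 mitochondrial gene upwards and 2 downwards. Among all 11823 tested genes 2096 had such a p upwards and 1623 downwards. The risen genes changed by 3.42-fold (Kars) to 10.1-fold (Vars). The median log2 fold change was 1.90 over the cytoplasmic class, 0.57 over the mitochondrial class and 0.06 over all tested genes. The medians describe the classes, and the difference between them was not tested. In 10 of the risen genes the libraries of the groups did not overlap, with metastases above, as in 8.50% of all tested genes, and in no synthetase gene did metastases lie wholly below, as in 6.17% of all. Without Gars and Kars, 9 of 18 rose and the median was 1.90.

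**Figure D1:**
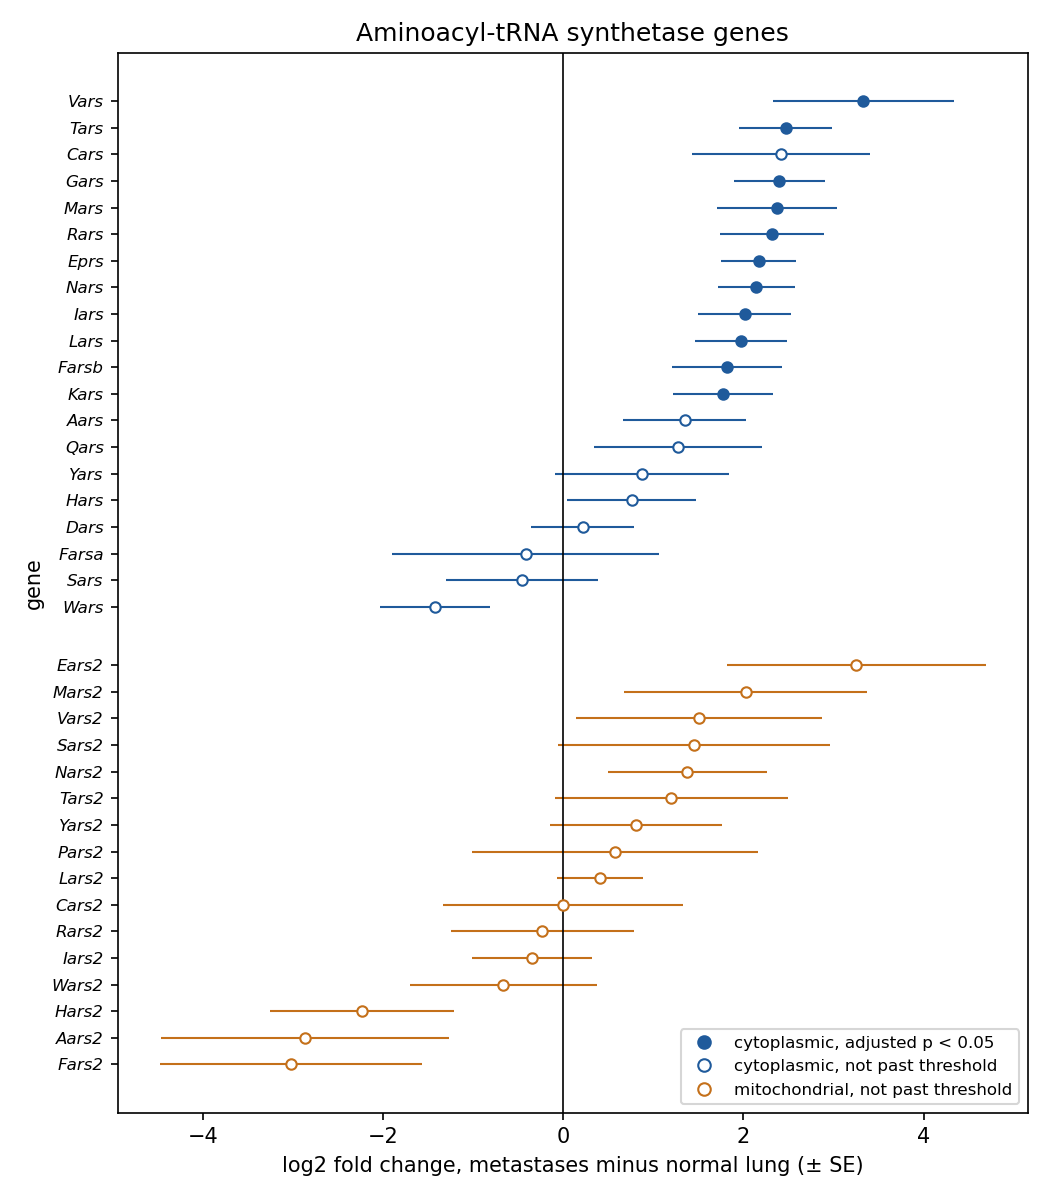
Log2 fold change (metastases minus normal lung) with its SE on the horizontal axis for 36 of the synthetase genes, cytoplasmic in blue and mitochondrial in orange, with filled points for genes past the threshold. The 11 filled points are all cytoplasmic and lie between 1.78 and 3.33, while the mitochondrial genes lie on both sides of 0, with a median SE of 1.30 against 0.61 for the cytoplasmic genes.

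The summed level, which holds the 11 risen genes and so is not separate from their calls, shows the same contrast library by library. The 20 cytoplasmic genes together took 1084, 693, 1017, 687 and 969 CPM in normal lung replicates 1 to 5 and 3001, 2668, 2826, 2805 and 2810 CPM in metastasis replicates 1 to 5. The metastasis libraries were all above the normal libraries, at 2822 ± 119 against 890 ± 187 CPM (SD, n = 5 each), a ratio of 3.17. Among the same metastasis libraries the pan-endothelial sum was 10574, 5758, 5426, 2070 and 1384 CPM. The 16 mitochondrial genes other than Lars2 together took 194, 239, 314, 98.2 and 237 CPM in normal lung and 243, 241, 213, 236 and 244 CPM in metastases. These groups overlapped, with means of 216 ± 78.9 and 235 ± 12.8 CPM (SD, n = 5 each). On the authors' FPKM scale, which divides by transcript length, the cytoplasmic sum exceeded the mitochondrial sum without Lars2 by 2.79 to 8.20 times in normal lung and by 10.1 to 18.2 times in metastases.

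**Figure D2:**
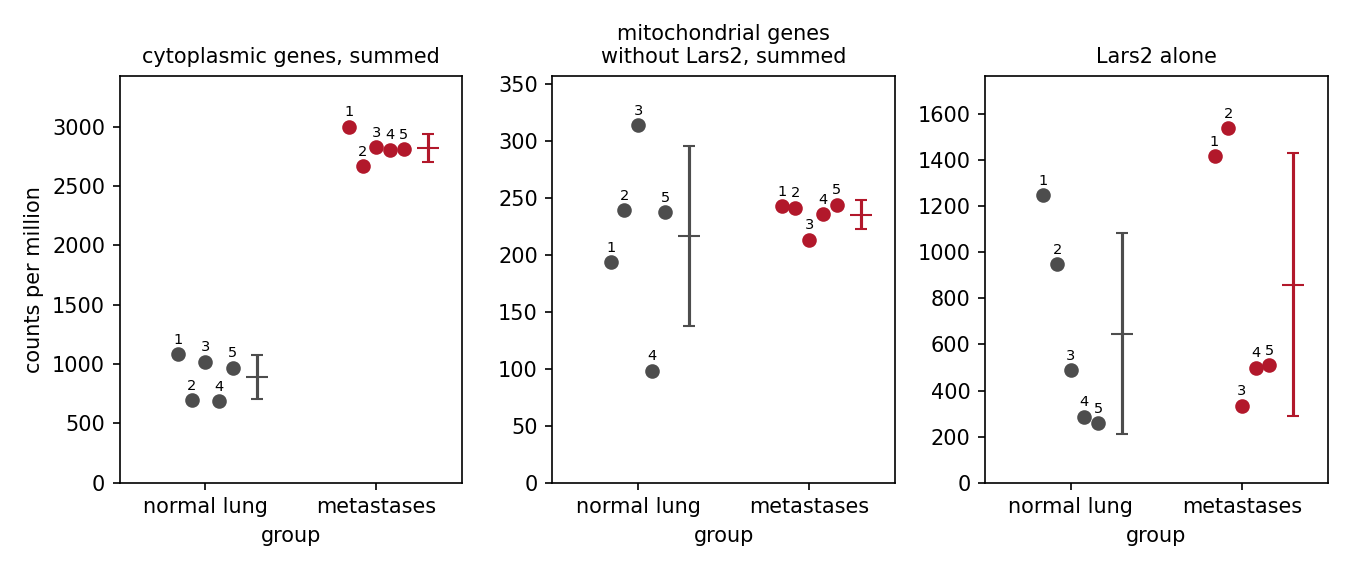
Summed CPM (vertical axis, from 0) in each library by group for the 20 cytoplasmic genes, the 16 mitochondrial genes other than Lars2, and Lars2 alone, with replicate numbers above the points and mean ± SD at the right of each group. The groups are apart only in the first panel, 687 to 1084 against 2668 to 3001 CPM, and in the Lars2 panel replicates 1 and 2 stand above replicates 3 to 5 in both groups.

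Of the 8 members of the multisynthetase complex 6 rose (12.0% of all tested genes), a grouping made after the values were seen. Eprs, whose protein charges both glutamate and proline tRNAs (chr1:185363044-185428360, GRCm38), was at 158, 74.2, 117, 130 and 143 CPM in normal lung replicates 1 to 5 and at 949, 333, 282, 718 and 515 CPM in metastasis replicates 1 to 5. Every metastasis library was above every normal library. The rise was 4.50-fold (log2 fold change 2.17 ± 0.41 SE, edgeR adjusted p = 0.000596).

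Iars, the isoleucine enzyme (chr13:49682100-49734267), was at 20.0, 28.6, 201, 96.0 and 158 CPM in normal lung and at 424, 284, 556, 334 and 437 CPM in metastases. It spread more widely than Eprs in normal lung and still did not overlap between groups (4.04-fold, 2.01 ± 0.52, adjusted p = 0.00745). A processed pseudogene, Gm4849, which is not in the count files, matches 1656 bases of its 4426-base transcript at 96.0% identity, so reads of either cannot always be told apart. Lars, the leucine enzyme, which also acts as a leucine sensor, was at 36.1, 16.6, 27.5, 61.3 and 88.9 CPM in normal lung and at 244, 141, 186, 139 and 195 CPM in metastases. Its groups were apart as well (3.93-fold, 1.97 ± 0.51, adjusted p = 0.00738).

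Rars, the arginine enzyme (chr11:35808381-35834506), was at 7.78, 43.6, 55.0, 23.7 and 54.7 CPM in normal lung and at 64.9, 222, 340, 118 and 174 CPM in metastases, where replicate 1 lay close above the highest normal libraries (4.97-fold, 2.31 ± 0.58, adjusted p = 0.00573). Mars, the methionine enzyme (chr10:127296221-127311786), was at 5.71, 32.7, 16.5, 17.8 and 7.45 CPM in normal lung and at 36.3, 95.9, 101.5, 88.7 and 93.4 CPM in metastases. Again metastasis replicate 1 was the lowest of its group and near the highest normal library (5.18-fold, 2.37 ± 0.67, adjusted p = 0.0129). Mars lost its call without metastasis replicates 4 and 5 together (0.0781) and within libraries 1 and 2 alone (0.44). Its exons overlap those of Ddit3, a gene of the stress response on the other strand, by 68 bases.

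Kars, the lysine enzyme of both compartments (chr8:111993443-112011323), was at 34.8, 24.7, 31.1, 21.9 and 45.7 CPM in normal lung and at 104, 197, 56.3, 89.4 and 95.8 CPM in metastases. Its groups did not overlap (3.42-fold, 1.78 ± 0.55, adjusted p = 0.0244). The call of Kars was lost without normal lung replicates 2 (0.0578), 3 (0.0546) or 4 (0.065) or metastasis replicate 2 (0.0888). The remaining members of the complex did not pass the test. Qars, the glutamine enzyme, was at 1.28 ± 0.94 (adjusted p = 0.38) with metastasis libraries from 1.32 to 106 CPM, and Dars, the aspartate enzyme, was at 0.21 ± 0.58 (0.84). The scaffold genes, named for this role after their values were seen, did not pass either, Aimp1 at 1.39 ± 1.06 (0.401), Aimp2 at -0.50 ± 1.52 (0.861) and Eef1e1 at 2.16 ± 0.98 (0.127), although Eef1e1 was higher in every metastasis library than in every normal one and passed with DESeq2 (0.00317) and in the 3 limma fits (0.00873 to 0.0135).

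Among the 12 cytoplasmic genes outside the complex 5 rose (12.0% of all tested genes). Nars, the asparagine enzyme, had the highest FPKM of the cytoplasmic class over the 10 libraries, with 38.3 ± 21.7 FPKM in normal lung and 168 ± 31.4 FPKM in metastases. In CPM it was at 114, 44.2, 122, 53.0 and 193 in normal lung and at 447, 415, 496, 458 and 505 in metastases. The metastasis libraries lay close together and far above normal lung (4.42-fold, 2.14 ± 0.42, adjusted p = 0.000852).

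Gars, the glycine enzyme of both compartments (chr6:55038007-55079500), whose promoter holds the ATF4 letters printed above, was at 28.1, 33.0, 19.6, 28.0 and 30.2 CPM in normal lung and at 103, 122, 173, 180 and 157 CPM in metastases. The spread was small in both groups and the ranges lay far apart (5.28-fold, 2.40 ± 0.50, adjusted p = 0.00137). Tars, the threonine enzyme, which can also be secreted (chr15:11382301-11399665), was at 23.8, 16.2, 32.7, 28.2 and 27.7 CPM in normal lung and at 151, 199, 99.9, 100.5 and 163 CPM in metastases. Tars thus resembled Gars in level and in the width of the gap (5.54-fold, 2.47 ± 0.52, adjusted p = 0.00142). The ATF4 letters were in 3 of the 6 risen genes with a promoter entry and in 5 of all 12 cytoplasmic genes with one. A link between the letters and a rise was not tested.

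Vars, the valine enzyme (chr17:35000987-35016322), had the largest fold change of the risen genes at a low level. It was at 4.59, 0.825, 2.35, 4.72 and 1.08 CPM in normal lung and at 22.3, 51.4, 6.05, 20.3 and 36.5 CPM in metastases. The groups did not overlap, but metastasis replicate 3 came near the normal range (10.1-fold, 3.33 ± 1.01, adjusted p = 0.0202). The call of Vars was lost without normal lung replicate 5 (0.0505) or metastasis replicate 2 (0.0532). Farsb, the beta subunit of the phenylalanine enzyme (chr1:78417975-78488897), was at 36.3, 25.2, 29.1, 40.5 and 23.4 CPM in normal lung and at 38.0, 188, 26.5, 164 and 130 CPM in metastases. Its groups overlapped, because metastasis replicates 1 and 3 were in the normal range (3.53-fold, 1.82 ± 0.61, adjusted p = 0.0361). Farsb kept its call in only 2 of the 10 fits that each left out a library, with adjusted p between 0.00926 and 0.105, and 9.47% of its exonic bases overlap Sgpp2 on the other strand.

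**Figure D3:**
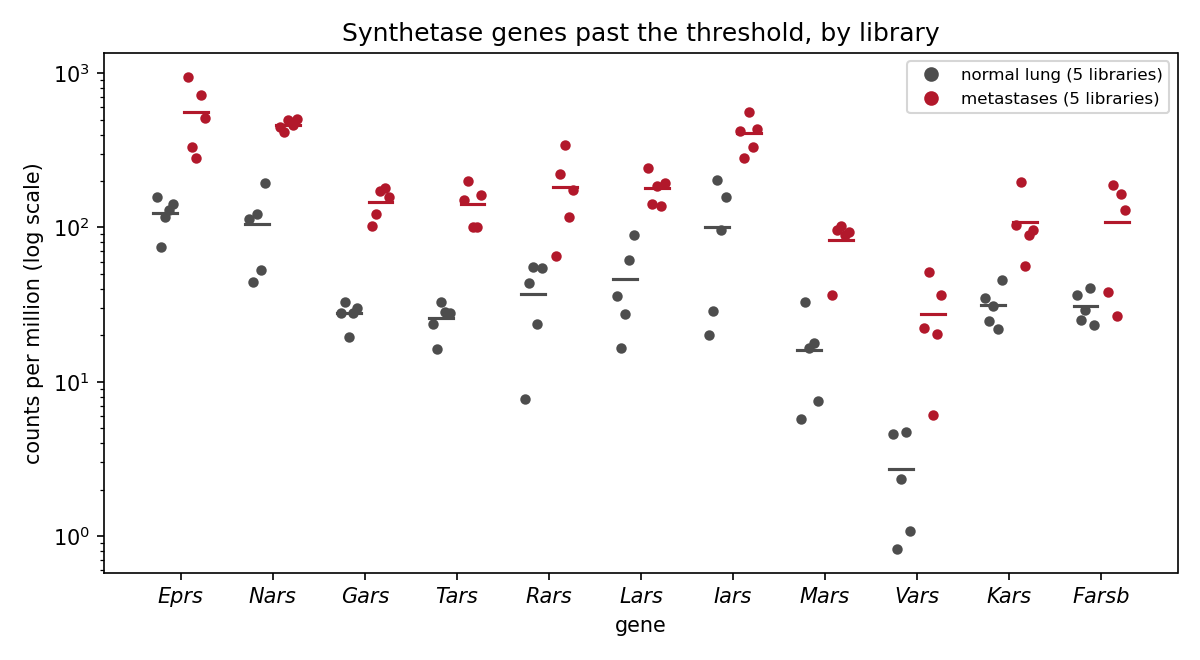
CPM of the 11 risen genes (vertical axis, log scale) in each library, normal lung in grey and metastases in red, with lines at the group means and genes ordered by adjusted p. In 10 of the 11 all metastasis points lie above all normal points, and in Farsb the groups overlap.

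The 9 cytoplasmic genes that did not pass had log2 fold changes from -1.43 to 2.42, and 6 were positive. Cars, the cysteine enzyme, was as large in its estimate as the risen genes but less precise, at 2.42 ± 0.99 (adjusted p = 0.0886), and Aars, the alanine enzyme, was at 1.35 ± 0.68 (0.181), with 14.3% of its exonic bases shared with Exosc6. Cars passed with DESeq2 (2.44, 0.0125) and in the 3 limma fits on FPKM (0.0247 to 0.0423), and Aars in the 2 limma fits with a filter (0.0445 and 0.042). Hars, the histidine enzyme, was at 0.76 ± 0.72 (0.516), and Yars, the tyrosine enzyme, whose protein can be cleaved into cytokines, at 0.88 ± 0.97 (0.589). Sars, the serine enzyme, which has a known role in vessel development, was at -0.46 ± 0.85 (0.76), with 158 CPM in normal lung replicate 1 and 6.29 to 30.0 CPM in the other normal libraries. Farsa, the alpha subunit that pairs with the product of Farsb, was at -0.42 ± 1.48 (0.882), and at 1.57 FPKM over all libraries it was far below the 28.6 FPKM of Farsb.

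Wars, the tryptophan enzyme, which interferon gamma induces and whose fragments restrain vessel growth, had the lowest estimate of the 3 cytoplasmic genes with a negative one. It was at 203, 187, 143, 49.9 and 34.1 CPM in normal lung replicates 1 to 5 and at 90.5, 64.6, 27.6, 26.4 and 20.7 CPM in metastasis replicates 1 to 5. Within each group replicates 1 and 2 were the highest, and the groups overlapped. The difference of -1.43 ± 0.61 did not pass (adjusted p = 0.103), and it passed with a term for libraries 1 and 2 against 3 to 5 (-1.49, 0.0361) and without metastasis replicate 1 (-1.85, 0.038). By mean FPKM Wars was in position 1 of the 20 cytoplasmic genes in normal lung (74.9 ± 41.3) and in position 12 in metastases (31.4 ± 22.3). Nars was in position 2 and then 1, Iars in position 4 and then 2 (98.1 ± 39.6 FPKM in metastases), and Eprs in position 5 and then 3 (97.4 ± 44.3). In normal lung the SD of Wars spans the level of Nars, and in metastases those of Iars, Eprs and Rars (79.9 ± 51.6) span each other.

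The mitochondrial genes were lower and more erratic than the cytoplasmic genes. Their median level was 2.99 FPKM against 27.8 FPKM for the cytoplasmic class, and 9 of 17 had, within a single group, libraries under 1 CPM beside libraries of at least 5 CPM. In the cytoplasmic class Cars, Farsa, Qars and Yars did so too, and 5 of 20 genes had a library under 1 CPM. The median SE of the log2 fold change was 1.30 in the mitochondrial and 0.61 in the cytoplasmic class, and at the mitochondrial SE a difference of the size of the cytoplasmic median is within 2 SE of 0. When all tested genes were split into 4 equal bins by mean log2 CPM, 11 cytoplasmic genes and 1 mitochondrial gene, Lars2, were in the highest bin. There 9 of the 11 cytoplasmic genes rose, against 13.2% of all genes of that bin, and in the lower bins 2 of 9 rose, against 11.5 to 11.7%.

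Lars2, the leucine enzyme of mitochondria (chr9:123366927-123462666), had the highest FPKM of all 37 genes, at 179 ± 86.7 in normal lung and 234 ± 127 in metastases. In CPM it was at 1250, 949, 488, 286 and 258 in normal lung and at 1417, 1540, 334, 500 and 509 in metastases. Replicates 1 and 2 were the highest in both groups, and so was Rn45s, which gives the precursor of ribosomal RNA, at 3.51, 2.83, 0.454, 0.408 and 0.469% of gene counts in normal lung and 1.45, 4.61, 0.647, 1.04 and 1.24% in metastases. The part of ribosomal reads in Lars2 was not tested. The groups overlapped and the difference was 0.41 ± 0.48 (adjusted p = 0.609).

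Iars2, the isoleucine enzyme, was next in level among mitochondrial genes at 21.1 FPKM. It was at 36.6, 54.4, 154, 27.7 and 79.6 CPM in normal lung and at 17.3, 69.2, 11.5, 78.8 and 99.5 CPM in metastases. The groups overlapped widely (-0.35 ± 0.67, adjusted p = 0.766), and 22.9% of its exonic bases overlap Rab3gap2 on the other strand. The lowest estimates of the class were those of Fars2 (-3.03 ± 1.46, adjusted p = 0.155), Aars2 (-2.87 ± 1.597, 0.228) and Hars2 (-2.23 ± 1.02, 0.131), for phenylalanine, alanine and histidine. Fars2 passed without metastasis replicate 5 (-5.38, 0.0269), and Hars2 passed with DESeq2 (-2.14, 0.0333). Both estimates rested largely on 1 normal library. Without normal lung replicate 5, at 55.1 CPM beside 0.789 to 4.99 CPM in the others, Fars2 was at -0.86 (adjusted p = 0.768), and without normal lung replicate 1, at 78.2 CPM beside 2.16 to 20.2 CPM, Hars2 was at -1.13 (0.556). Aars2 was at 16.2 and 11.7 CPM in normal lung replicates 1 and 2 and at 0.0706 to 0.567 CPM in the other normal libraries. With a term for libraries 1 and 2 Aars2 was at -0.34 (edgeR adjusted p = 0.94). The highest estimates were those of Ears2, the glutamate enzyme (3.26 ± 1.44, adjusted p = 0.118), and Mars2, the methionine enzyme (2.02 ± 1.35, 0.327). The value of Ears2 rested on 51.6 CPM in metastasis replicate 3, since the other metastasis libraries were at 0.612 to 1.62 CPM.
Vars2, Sars2, Nars2, Tars2, Yars2 and Pars2 were between 0.57 and 1.51, and Cars2, Rars2 and Wars2 between -0.66 and -0.01, with adjusted p of 0.304 or more. Cars2 passed downwards without metastasis replicate 1 (-4.44, 0.0308), a library with 55.1 CPM beside 0.145 to 1.34 CPM in the other metastasis libraries. In the authors' FPKM that library was at 2.72 beside 0.0892 to 1.58.

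Genes that charge the same amino acid in the cytoplasm and in mitochondria were set side by side in 18 pairs. In 14 pairs the log2 fold change of the cytoplasmic gene was the larger, and the median difference was 1.58. The widest gaps were those of Farsb and Fars2 (4.85), Aars and Aars2 (4.22) and Hars and Hars2 (2.99), in each of which the mitochondrial estimate was negative. Those mitochondrial estimates rested largely on few normal libraries, as given above. Sars and Sars2 (-1.91), Eprs and Ears2 (-1.09) and Wars and Wars2 (-0.76) were among the 4 that went the other way. Eprs is in 2 pairs and Fars2 in 2, and the differences were not tested.

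**Figure D4:**
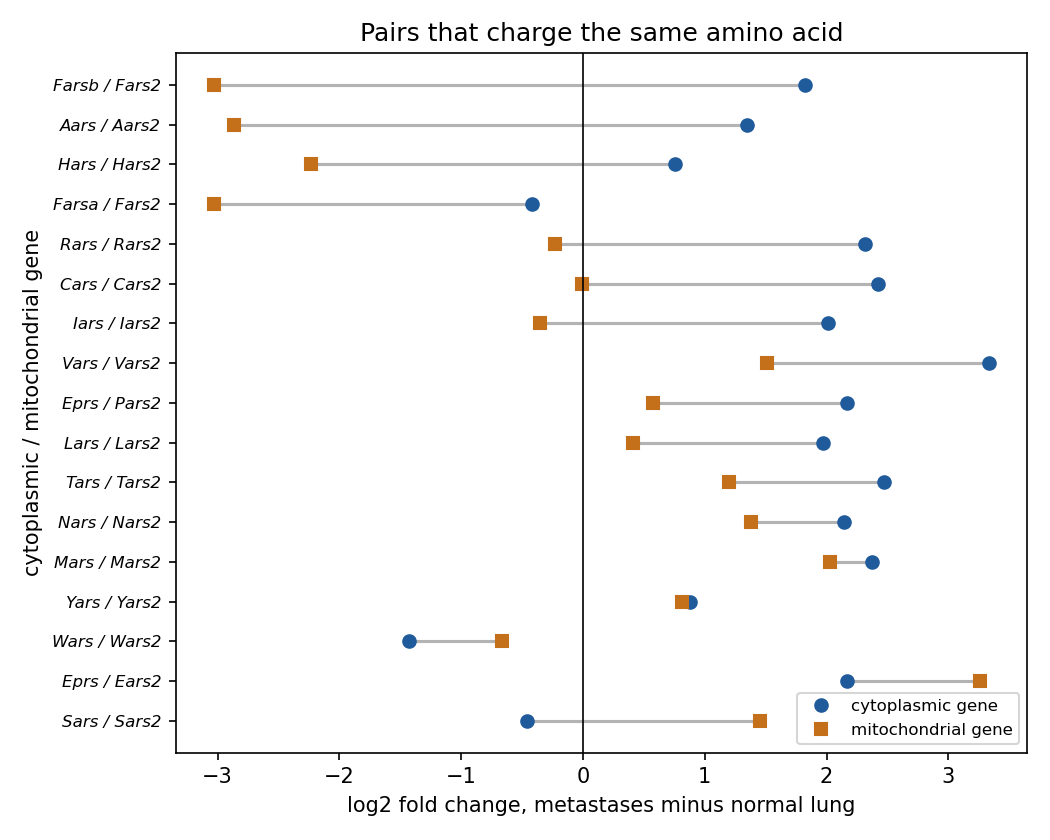
Log2 fold change (horizontal axis, metastases minus normal lung) of the cytoplasmic gene (blue circle) and the mitochondrial gene (orange square) for 17 of the pairs that charge the same amino acid, ordered by the difference. The circle lies to the right of the square in 14 pairs.

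Lists of genes around tRNA charging were set beside the synthetases. The lists were chosen with earlier results of these data known, so their counts beside the share of all tested genes are descriptions only. Factors of cytoplasmic elongation, which bring charged tRNAs to the ribosome and move it along, were higher: of 7 tested genes 5 rose (12.0% of all tested genes), with a median of 1.69. Eef1a1, which carries charged tRNA to the ribosome, was at 302 ± 34.9 CPM in normal lung and 962 ± 134 CPM in metastases (SD, n = 5 each), a rise of 3.19-fold (1.67 ± 0.33 SE, edgeR adjusted p = 0.000758). Of the genes of its exchange factor complex, Eef1b2 (2.88 ± 0.61, adjusted p = 0.00164) and Eef1g (2.55 ± 0.71, 0.0125) rose, and Eef1d did not pass (1.69 ± 0.92, 0.213). The translocase gene Eef2 (1.37 ± 0.42, 0.0234) and Eif5a, which relieves stalled ribosomes (2.18 ± 0.56, 0.00663), rose as well.

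For partners of charging in mitochondria no change was called. Of 18 genes for mitochondrial charging, tRNA modification and translation factors 0 passed the test (20.2% of all tested genes, either way), with a median of -0.24. The summed level of the 18 genes was 301 to 567 CPM in normal lung and 226 to 571 CPM in metastases. Unadjusted, 1 had a p under 0.05 upwards and 2 downwards, and DESeq2 called 1 higher and 2 lower. Among all 11823 tested genes 2096 had such an unadjusted p upwards and 1623 downwards. With DESeq2, 2380 of 14400 genes were called higher and 1661 lower. Of 12 partners, editors and relatives of the cytoplasmic enzymes 0 passed (median 0.80), with an unadjusted p under 0.05 for 2, both upwards, and 2 called higher by DESeq2. The summed level of these 12 genes was 69.8 to 129 CPM in normal lung and 153 to 211 CPM in metastases. Every metastasis library was thus above every normal one in this sum.

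Amino acid response genes of the ATF4 list were also higher. Of 26 tested genes of 31 listed 15 rose and 0 fell (12.0% and 8.22% of all tested genes), with a median of 3.12. The other 11 did not pass, and 2 of the 26 estimates were negative. Chac1, named after its values were seen, had the lowest (-2.64 ± 1.11, edgeR adjusted p = 0.0976). DESeq2 called 20 members of the list higher and 1 lower, against 2380 and 1661 of 14400 genes. The largest changes were those of Nupr1, a stress-induced chromatin protein (6.50 ± 1.51, adjusted p = 0.00319), and Slc7a5, the transporter of large neutral amino acids (6.42 ± 0.59, 5.35e-08). Nupr1 was near 0 in normal lung, at 0.0235 to 0.365 CPM. In metastasis replicates 1 to 5 it was at 3.55, 54.2, 0.744, 6.18 and 10.5 CPM, so its fold change is uncertain. Asns, asparagine synthetase, named here after its values were seen because it makes the amino acid that Nars charges, rose 6.35-fold, from 32.6 ± 38.2 to 207 ± 33.8 CPM (2.67 ± 0.61, adjusted p = 0.00271). Atf4 itself was at 129 ± 41.2 and 249 ± 80.0 CPM and did not pass (0.95 ± 0.41, adjusted p = 0.109), though it passed with library totals (1.26, 0.0295) and in limma with no filter (0.87, 0.0472). The ATF4 letters were in 8 of 27 promoters of this list (29.6%). Within libraries 1 and 2 alone 6 members of the list rose (3.87% of all genes tested in that fit).

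The list of Myc and biosynthesis genes had 12 of 13 tested members risen (12.0% of all tested genes), with a median of 2.84. Myc, the transcription factor, rose from 10.6 ± 2.27 to 880 ± 530 CPM (6.38 ± 0.52, adjusted p = 8.38e-09), and Odc1, the first enzyme of polyamine synthesis, rose 12.1-fold (3.59 ± 0.48, 1.17e-05). Of 6 genes of the kinases that phosphorylate eIF2 and their partners 1 rose, a share near the 12.0% of all tested genes. It was Eif2ak2, the kinase that senses double-stranded RNA (1.42 ± 0.43, 0.0211). The count was 0 in the 3 limma fits, within libraries 1 and 2 alone, without metastasis replicates 4 and 5, at an adjusted p under 0.01, and without normal lung replicate 1 or 2 or metastasis replicate 3 or 5. The kinase that senses uncharged tRNA, Eif2ak4, named after its values were seen, was at 1.46 ± 0.77 (0.201). Interferon gamma response genes, set beside Wars, were called in shares near those of all tested genes (12.0% risen, 8.22% fallen). Of 14 tested genes 2 rose, the chemokine genes Cxcl10 (4.22 ± 0.82, adjusted p = 0.000726) and Cxcl9 (3.34 ± 1.01, 0.0201), and 2 fell, the transcription factor gene Irf1 (-1.99 ± 0.61, 0.0215) and the GTPase gene Gbp4 (-1.96 ± 0.52, 0.00866). The median was -0.48.

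**Figure D5:**
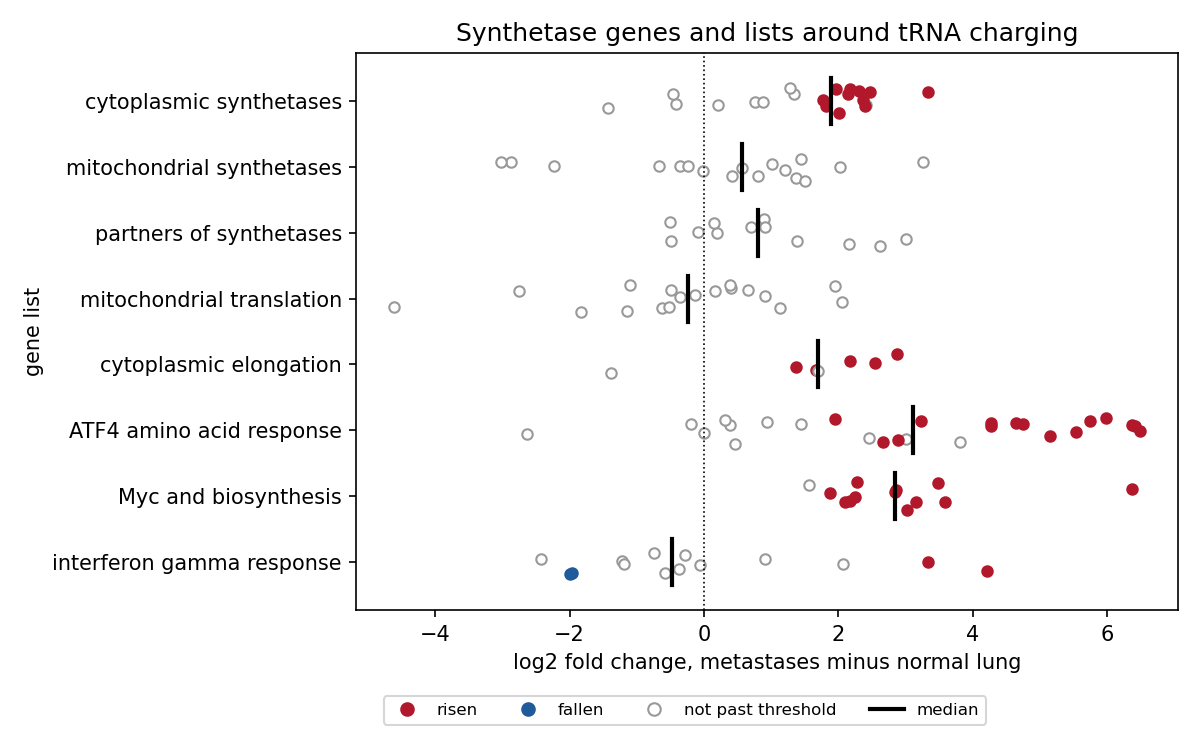
Log2 fold change (horizontal axis) of every tested gene of the synthetase classes and of 6 lists, with filled red points for risen, filled blue for fallen and open points for genes not past the threshold, and a bar at each median. Medians are 1.90 for cytoplasmic and 0.57 for mitochondrial synthetases, 3.12 for the ATF4 list and -0.24 for mitochondrial translation.

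The counts of risen genes depended on 1 of the scalings tried. All 11 risen genes passed under each of them, and with RLE, upper quartile scaling and library totals the count stayed at 11. When libraries were scaled to the pan-endothelial genes, whose level was lower in metastases, the median of all tested genes was 2.74. Then 18 cytoplasmic and 10 of 17 mitochondrial synthetase genes were higher, against 57.2% of all tested genes, so the mitochondrial count was near that share. Under that scaling the median was 4.58 for the cytoplasmic and 2.95 for the mitochondrial class, and Wars, Sars and Farsa and the mitochondrial genes with negative estimates turned positive. Within libraries 1 and 2 alone 5 cytoplasmic genes rose (3.87% of all genes tested in that fit), and within libraries 3 to 5 alone 7 rose (9.29%). When metastasis replicates 4 and 5, lowest in endothelial genes, were both left out, 7 rose (9.08%).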

How the data were processed

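The 10 libraries were compared, 5 of normal lung and 5 of lung metastases, grouped by their titles. The authors deposited unnormalized read counts for every gene, in 1 file per sample, and the authors' FPKM table gives values per gene for the same samples. Per the submitters' processing notes, the tools were HTSeq 0.6.1, TopHat2 2.0.13, DESeq2 1.6.3 and Cufflinks 2.2.1 and the build mm10 or GRCm38. Which annotation was used, and whether strand was, is not given in the sources used here. HTSeq summary categories were left out of library sizes (no feature, 55.4 to 73.7% of each file's total).

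Genes were filtered with filterByExpr (minimum count 10, minimum total 15), scaled by TMM (CPM are counts per 1000000 of the scaled library size) and fitted without covariates in edgeR 4.0.16 (R 4.3.3, robust quasi-likelihood F test). Dividing the size of a log2 fold change by the root of its F gave the SE. FPKM were used for levels between genes and in limma 3.58.1 on log2(FPKM + 1). The fits were tested on simulated counts. The values of 1 gene, counted in its class, and 1 promoter sequence are not reported here. The members and lists were chosen with earlier results of these data known. All members could be named, and for lists the 2 largest called changes each way, Atf4, and all of 5 or fewer called. Settings tried were DESeq2 1.42.0, scalings, filters, pseudocounts, a replicate block, library sets, a threshold of 0.01 and each library left out. The other settings for the lists and the bins by level were chosen after seeing the data. Nothing in the labels says that normal libraries came from separate mice, so p-values measure the spread between these samples. Positions are from GENCODE M21 (GRCm38), copies from BLAST 2.17.0, figures from matplotlib 3.10.9.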

Additional observations from a re-analysis of the deposited data

Results flagged for a closer look

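In each of 36 synthetase genes and each group, the highest or lowest library was compared with the range of its 5 libraries on log2 CPM. In 5 of 72 groups it stood apart by more than Dixon's 95% limit (a gap over 0.71 of the range), where chance gives about 1 in 20. Of these, 3 were high and 2 low. Normal lung replicate 3 was high for Pars2 (19.6 CPM, next 0.299). Normal lung replicate 5 was high for Farsa (12.8 CPM, next 1.53). Metastasis replicate 3 was high for Ears2 (51.6 CPM, next 1.62). Metastasis replicate 1 was low for Mars (36.3 CPM, next 88.7), and metastasis replicate 5 was low for Rars2 (2.75 CPM, next 7.15). In the authors' FPKM the same library was far from the next for Pars2 (7.94, next 0.121), Ears2 (9.16, next 0.192) and Mars (12.6, next 34.8). It was not for Farsa, at 1.16 FPKM beside 0 to 1.38 in the other normal libraries. Rars2 was at 0.821 FPKM, next 0.976.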

How the results depend on the processing

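Of the 11 risen genes, Eprs, Iars, Nars and Tars kept their call in all 26 other settings, Gars, Lars and Rars in 25, Mars in 23, Vars in 20, Kars in 18 and Farsb in 12. The count of risen genes was 28 with pan-endothelial scaling (18 cytoplasmic, 10 mitochondrial), where 6762 of all tested genes were higher and 18 lower, against 1420 and 972 in the main comparison. It was 5 within libraries 1 and 2 alone (3.87% of all tested genes) and 7 within libraries 3 to 5 alone (9.29%), all cytoplasmic. It was also 7 without metastasis replicates 4 and 5 (9.08%) and at an adjusted p under 0.01 (7.35%), again all cytoplasmic. When each library was left out in turn it ranged from 8 (without metastasis replicate 2) to 11. Library totals moved the median of all tested genes from 0.06 to 0.32, and upper quartile scaling moved it to -0.08. With the replicate block 10 genes rose, and Farsb did not (1.49, adjusted p = 0.104). Deviations of same-numbered libraries correlated between 0.000682 and 0.142, and in 2 of 5 numbers each library correlated best with its own number, so the numbers were not taken to pair the libraries. Replicates 1 and 2 were the deepest libraries of both groups.

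Genes that did not pass changed sign in some settings, and the cause was not tested. With pan-endothelial scaling Aars2 was at 1.16, Cars2 at 1.35, Fars2 at 0.41, Farsa at 1.22, Hars2 at 1.04, Iars2 at 2.76, Rars2 at 2.16, Sars at 2.95, Wars at 0.94 and Wars2 at 1.39, and the fallen genes Irf1 and Gbp4 were at 0.44 and 0.13. Cars2 was at 0.18 with DESeq2 and with RLE scaling, 0.0021 with no filter and 0.0058 with the CPM filter. Iars2 was at 0.089 with library totals. In limma on log2(FPKM + 1), with and without a filter, Farsa was at 0.16, Sars at 0.58 and Yars at -0.33, and with a pseudocount of 0.1 Sars was at 0.77 and Yars at -0.56. With the replicate block Sars was at 0.68 and Yars at -0.30. With a term for libraries 1 and 2 Pars2 was at -0.51. Within libraries 1 and 2 alone Cars2 was at 0.30, Farsa at 2.35, Qars at -0.17, Rars2 at 0.64, Yars at -0.37 and Yars2 at -0.85. Within libraries 3 to 5 alone Pars2 was at -2.77 and Sars at 1.16. Without metastasis replicates 4 and 5 Cars2 was at 0.73, Farsa at 0.24, Yars at -0.44 and Yars2 at -0.15. With each library left out in turn Cars2 ranged from -4.44 to 0.71, Dars from -0.020 to 0.42, Farsa from -3.67 to 0.97, Iars2 from -0.70 to 0.12, Pars2 from -2.42 to 4.68, Rars2 from -0.48 to 0.017, Sars from -0.79 to 1.00, Sars2 from -0.70 to 2.53, Wars2 from -2.21 to 0.64 and Yars from -0.41 to 1.16.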
